A study of Homo sapiens with 6 samples.

Results

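The DHRS genes encode dehydrogenase/reductase members of the short-chain dehydrogenase family, and 9 of them were followed here in SiHa cells in which CNN3 was silenced: DHRS1, DHRS2, DHRS3, DHRS4, DHRS7, DHRS7B, DHRS9, DHRS11 and DHRS13. DHRS2 was chosen on the measured values, because its increase in these samples was one of the largest, and the other 8 were listed by name as its relatives. Of these 9 genes, 8 had an identifier among the 48162 of the count table and 7 passed the filter on low counts, out of 15860 genes that did. DHRS9 was too low to be tested, and DHRS11 was not analysed here because its current Ensembl identifier was not among those of the table.

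SiHa is an established human cervical cancer cell line. CNN3, the gene of the actin-binding protein calponin 3, was targeted in 3 samples by the siRNA si-CNN3#1, and 3 samples received the control siRNA si-NC. The comparison asks which transcripts differ when CNN3 is reduced. The medium with the transfection reagents was replaced on the way, at an hour on which the sample labels and the methods differ. RNA was harvested at 48 h in both groups, and the methods describe the samples of each group as 3 independent assays. The experiment is limited to 1 cell line, 1 siRNA against CNN3 and 1 time point, and to RNA rather than protein.

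Short-chain dehydrogenases/reductases are enzymes that move hydride between a substrate and the cofactors NAD(H) or NADP(H), and their substrates include retinoids, steroids, fatty acyl chains, sugars and reactive carbonyls. Several DHRS enzymes act on the vitamin A pathway, where retinol is oxidised to retinal and then to retinoic acid, the ligand of the RAR and RXR nuclear receptors, while DHRS3 works in the opposite direction and returns retinal to retinol. DHRS2, also called HEP27, is a dicarbonyl reductase found in mitochondria and nucleus that has been described to bind the ubiquitin ligase MDM2, and DHRS4 is its closest relative, a peroxisomal carbonyl and retinal reductase.

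DHRS2 and DHRS4 lie on the same strand of chromosome 14, with starts 323 kb apart, and their coding sequences were 73.6% identical over 829 aligned bases. The 250 bases before each RefSeq start are shown because the pair differed in level and in response, with the motif TATAAA in capitals. They were read from RefSeq promoter entries on GRCh38.p14, on the plus strand, 5′ to 3′, at chr14:23629865-23630114 for DHRS2 and chr14:23953520-23953769 for DHRS4.
DHRS2: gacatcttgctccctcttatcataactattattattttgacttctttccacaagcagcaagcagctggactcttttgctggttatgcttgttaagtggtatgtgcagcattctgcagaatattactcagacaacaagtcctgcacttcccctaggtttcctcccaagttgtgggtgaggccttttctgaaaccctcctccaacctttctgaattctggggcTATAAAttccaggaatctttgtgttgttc
DHRS4: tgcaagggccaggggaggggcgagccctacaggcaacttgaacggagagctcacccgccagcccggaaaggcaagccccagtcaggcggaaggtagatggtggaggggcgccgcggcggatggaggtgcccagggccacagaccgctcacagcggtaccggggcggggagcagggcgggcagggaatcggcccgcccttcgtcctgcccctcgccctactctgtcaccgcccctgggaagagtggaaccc

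The DHRS2 sequence held no CpG dinucleotide, had a GC content of 43.2% and carried TATAAA beginning 29 bases before the start. The DHRS4 sequence held 19 CpG dinucleotides at a GC content of 70.8% and had no TATAAA on either strand. The GENCODE start of DHRS4, chr14:23953586, which gave the distance of 323 kb, lies inside this window. Part of the DHRS4 window is therefore within the gene as GENCODE places it, while the DHRS2 window ends just before chr14:23630115, its GENCODE start. Among all 35116 RefSeq windows of this length, 6.06% held no CpG, 6.80% held TATAAA on the gene's strand and 10.7% on either strand, and 1.15% combined the absence of CpG with TATAAA on the gene's strand. A start of TATAAA between 40 and 21 bases before the gene start was found in 2.30% of all windows, and together with the absence of CpG in 0.251%. These are matches of letters, and a match is not evidence that a factor binds there.

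RefSeq entries were found for 8 of the 9 DHRS genes, with 15 windows in all, and DHRS7 had none. The windows of DHRS1, DHRS11 and DHRS13 had a GC content of 65.2 to 74.8% and 19 to 29 CpG. DHRS3 had 3 windows with 26, 10 and 3 CpG, and DHRS7B had 2 windows with 21 and 6. DHRS9 was most like DHRS2 in composition, with 4 windows at 29.6 to 39.2% GC and 0 to 2 CpG, and with TATAAA on the gene's strand in 2 of them. Its window at chr2:169066827-169067076 held no CpG and had a TATAAA starting between 40 and 21 bases before the start. The combination was thus not particular to DHRS2. DHRS2 and DHRS9 were also the pair with the lowest levels in the control cells, as described further down. Whether these sequence features are linked to level or to response was not tested, and DHRS9 was too low for its response to be tested.

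**Figure D1:**
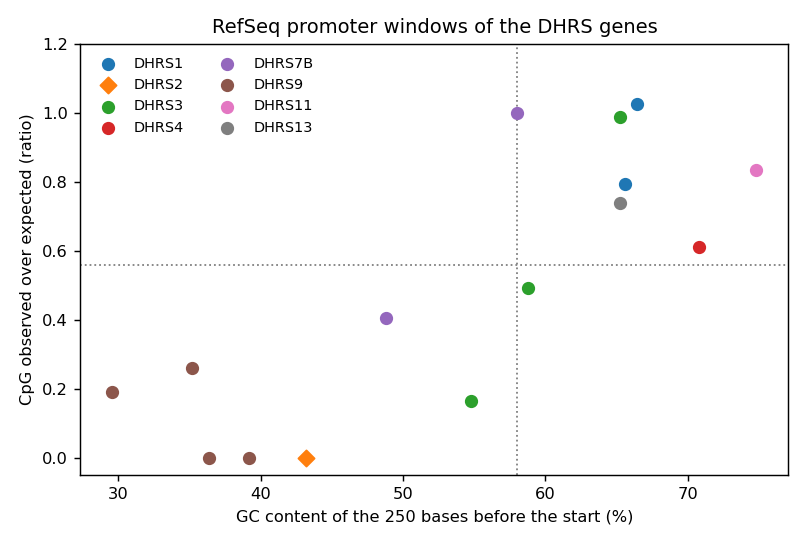
Each point is 1 RefSeq window of 250 bases before a gene start, by GC content (x, percent) and by observed over expected CpG (y, ratio), and dotted lines mark the medians of all 35116 windows, 58.0% and 0.558. DHRS2 (diamond) and the 4 DHRS9 windows lie at the lower left, while DHRS1, DHRS4, DHRS11 and DHRS13 lie above both medians.

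The counts were made by gene and ran from 18147028 to 19026341 per sample with si-CNN3#1 and from 20287139 to 24976517 with si-NC. Values are given as CPM (counts scaled by the normalized library size) when samples are compared, and as deposited FPKM, which divide by gene length as well as library size, when genes are compared with each other. CNN3 itself fell from 55.2 ± 2.97 to 28.1 ± 2.95 CPM (SD, n = 3 per group), which left 50.9% of the control level (log2 fold change -0.97, edgeR quasi-likelihood adjusted p = 2.04e-20), and RPLP1, the gene of a ribosomal stalk protein that the study followed up, fell by 0.67 on the log2 scale (SE 0.024, edgeR adjusted p = 2.43e-29). Epithelial keratin and adhesion genes marked the cells, with 6 of 7 markers at or above 1 CPM and summed levels of 952 to 1022 CPM with si-NC and 888 to 961 CPM with si-CNN3#1. Of 4 immune markers, CD14 averaged 135 CPM while the defining leukocyte gene PTPRC averaged 0.592 CPM, and the immune sum was 144 to 156 CPM with si-NC and 120 to 128 CPM with si-CNN3#1. Fibroblast markers summed to 11.1 to 13.0 CPM and endothelial markers to 0.0997 to 0.677 CPM, and the part of these markers in the results below was not tested. In RNA from whole cultures, fewer cells that express a gene and less RNA of it per cell cannot be told apart.

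DHRS2 (ENSG00000100867, chr14:23630115-23645639 on GRCh38, plus strand) had 118, 140 and 134 counts in the si-NC samples and 402, 364 and 377 counts in the si-CNN3#1 samples. On the CPM scale these were 5.88, 5.62 and 6.21 with si-NC and 21.3, 18.95 and 20.6 with si-CNN3#1. Every si-CNN3#1 sample was above every si-NC sample on both scales, and the gap between the groups was wider than the range within either. The mean went from 5.91 ± 0.294 to 20.3 ± 1.22 CPM (SD, n = 3), a ratio of 3.44, and the log2 fold change was 1.78 with a standard error of 0.087 and a 95% interval of 1.61 to 1.96. No p-value is attached to DHRS2, since this contrast selected it, and its interval is not corrected for that selection. It stood 11th from the top among the tested genes by log2 fold change. Among the 14111 with a mean of at least 1 CPM over both groups it stood 4th, between CCR4 at 2.01 and IRGM at 1.73. IRGM averaged 0.685 CPM with si-NC and met that floor only through the si-CNN3#1 samples.

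The deposited FPKM showed the same separation for DHRS2, with 2.84, 2.74 and 3.01 in the si-NC samples and 10.4, 9.35 and 10.2 in the si-CNN3#1 samples. In the control cells DHRS2 was a low transcript, above 27.5% of the tested genes by mean FPKM, and with si-CNN3#1 it was above 45.5% of them. The sum of the FPKM of the 8 measured DHRS genes was 269 to 272 with si-NC and 271 to 275 with si-CNN3#1. DHRS2 made up 1.01 to 1.12% of that sum in the si-NC samples and 3.40 to 3.84% in the si-CNN3#1 samples. It was a minor part of the DHRS transcripts in either group.

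By mean FPKM the order in the si-NC samples was DHRS3 (130), DHRS7 (62.3), DHRS1 (27.3), DHRS7B (21.6), DHRS4 (18.9), DHRS13 (7.70), DHRS2 (2.86) and DHRS9 (0.119), and no neighbouring ranges over the 3 samples overlapped. In the si-CNN3#1 samples the order was DHRS3 (125), DHRS7 (63.1), DHRS1 (26.6), DHRS7B (20.9), DHRS4 (20.2), DHRS2 (9.97), DHRS13 (7.19) and DHRS9 (0.031). DHRS2 and DHRS13 had exchanged places, without overlap in either group. The ranges of DHRS7B and DHRS4, which differed in the controls, overlapped in the si-CNN3#1 samples.

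**Figure D2:**
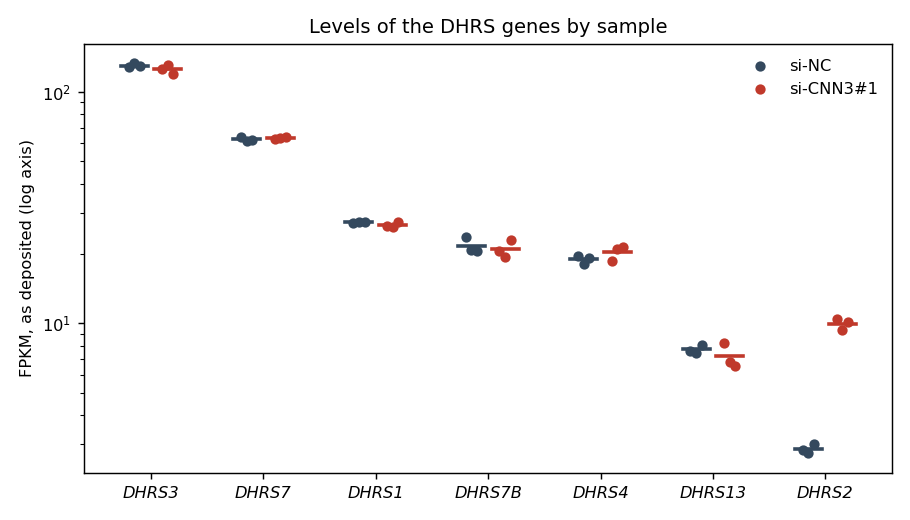
FPKM as deposited (y, log axis) of 7 DHRS genes (x) in each sample, with si-NC in dark blue, si-CNN3#1 in red and a line at each group mean, n = 3 per group. DHRS2 lies at 2.74 to 3.01 with si-NC and 9.35 to 10.4 with si-CNN3#1, and DHRS9, listed at 0 in 1 sample, is left off the log axis.

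Of the 7 tested DHRS genes, 1 was past an adjusted p of 0.05, the gene DHRS2 that had been chosen for it, against 13.3% of all tested genes (6.17% higher and 7.14% lower), and nothing is read from that count. None of the 6 tested relatives passed (edgeR quasi-likelihood test, adjusted over all tested genes), while DHRS3 had an unadjusted p below 0.05, and DESeq2 and limma on log2 FPKM called none of them either. Their log2 fold changes lay between -0.11 and 0.08 with a median of -0.06, where the median over all tested genes was 0.0023. For 2 of the 6, DHRS1 and DHRS3, the samples separated by group in CPM, as they did for 28.2% of all tested genes. A p that misses the threshold does not show that a gene was the same in both groups, so the 95% intervals are given with each gene.

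Among the enzymes of retinoid metabolism, DHRS3 (chr1:12567910-12617731, minus strand), the retinal reductase named above, was the most abundant DHRS transcript. It measured 133, 137 and 134 CPM with si-NC and 129, 133 and 123 CPM with si-CNN3#1, so that all si-CNN3#1 samples were below all si-NC samples, by a small distance. The log2 fold change was -0.07 (SE 0.032, 95% interval -0.14 to -0.01), with an unadjusted p of 0.0333 and an edgeR adjusted p of 0.154. In FPKM the groups did overlap, at 128, 133 and 129 with si-NC and 125, 130 and 120 with si-CNN3#1, so the separation of DHRS3 depended on the scaling.

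DHRS9 (chr2:169064789-169096167, plus strand), an epithelial retinol and hydroxysteroid dehydrogenase, was close to the limit of what was counted. It had 3, 6 and 5 counts in the si-NC samples and 2, 0 and 1 in the si-CNN3#1 samples. It did not pass the filter on low counts, and a fit without the filter gave a log2 fold change of -1.87 with a standard error of 0.93 and an edgeR adjusted p of 0.318. Every si-CNN3#1 sample was below every si-NC sample, but at so few counts it stays undecided whether DHRS9 differed.

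DHRS4 (chr14:23953586-23969279, plus strand), the carbonyl and retinal reductase of peroxisomes, measured 17.6, 16.1 and 17.1 CPM with si-NC and 16.5, 18.4 and 18.8 CPM with si-CNN3#1. The groups overlapped, and the log2 fold change was 0.08 (SE 0.071, 95% interval -0.06 to 0.23, edgeR adjusted p = 0.513). DHRS4 is the member closest to DHRS2 in coding sequence, and the interval of DHRS4 ended at 0.23.

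The reads of DHRS4 were in part shared with copies of it. Of the 50-base words in its transcripts, 37.1% also occurred in another gene, mostly DHRS4L2, whose coding sequence was 97.4% identical to that of DHRS4 over 728 aligned bases, and the rule applied to reads with several matches is not given. DHRS2 had 0.076% of such shared words, and the other DHRS genes of the list at most 1.07%. DHRS4 also shared 331 exon bases, 14.4% of its own, with DHRS4-AS1 on the opposite strand. The values of DHRS4 and DHRS4L2 are for this reason uncertain in how they divide, whereas those of DHRS2 were almost free of shared sequence.

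DHRS4L2, a shortened copy of DHRS4, measured 20.8, 20.8 and 18.4 CPM with si-NC and 22.5, 24.0 and 21.7 CPM with si-CNN3#1, and the groups did not overlap. Its log2 fold change was 0.18 (SE 0.065, 95% interval 0.05 to 0.31), just past the threshold with an edgeR adjusted p of 0.0496. The call was lost under 10 of 16 other settings, among them the removal of si-CNN3#1 replicate 1 (adjusted p = 0.0884), si-CNN3#1 replicate 2 (0.242), si-NC replicate 2 (0.0522) or si-NC replicate 3 (0.281), with edgeR in each case. When DHRS4, DHRS4L2 and the pseudogene DHRS4L1 were counted as 1 gene, a step added after the values were seen, the sum was 38.5, 37.2 and 36.2 CPM with si-NC and 39.1, 42.7 and 40.9 CPM with si-CNN3#1. The summed log2 fold change was 0.13 (SE 0.051, 95% interval 0.03 to 0.23, edgeR adjusted p = 0.074).

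DHRS7 (chr14:60144120-60169856, minus strand), a carbonyl reductase of the endoplasmic reticulum with steroid and retinoid substrates, measured 60.5, 57.8 and 58.5 CPM with si-NC and 58.6, 58.5 and 59.6 CPM with si-CNN3#1. All si-CNN3#1 values lay within the range of the controls. The log2 fold change was 0.00 with a 95% interval of -0.08 to 0.08 (SE 0.042, edgeR adjusted p = 0.997). DHRS7 shared 894 exon bases, 27.5% of its own, with PCNX4 on the opposite strand, which had 1343 to 1941 counts, and because it is not stated whether counting used the strand, these reads cannot be told apart.

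DHRS7B (chr17:21123364-21193265, plus strand), an enzyme of ether lipid synthesis in peroxisomes, measured 27.5, 23.8 and 23.7 CPM with si-NC and 23.5, 22.1 and 26.0 CPM with si-CNN3#1. The groups overlapped and 1 control sample was higher than all others, with a log2 fold change of -0.06 (SE 0.065, 95% interval -0.19 to 0.07, edgeR adjusted p = 0.599). DHRS1 (chr14:24290598-24299833, minus strand), an enzyme of the endoplasmic reticulum, measured 33.7, 33.5 and 34.0 CPM with si-NC and 32.3, 31.6 and 33.5 CPM with si-CNN3#1. The highest si-CNN3#1 sample lay just below the lowest control in CPM, while the groups overlapped in FPKM. The log2 fold change of DHRS1 was -0.06 (SE 0.053, 95% interval -0.16 to 0.05, edgeR adjusted p = 0.552).

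DHRS13 (chr17:28897781-28903071, minus strand), the lowest of the tested relatives, measured 10.5, 10.2 and 11.1 CPM with si-NC and 11.2, 9.22 and 8.87 CPM with si-CNN3#1. The si-CNN3#1 samples spanned the control range, with 1 sample above and the others below. Its log2 fold change was -0.11 (SE 0.093, 95% interval -0.30 to 0.07, edgeR adjusted p = 0.491). An antisense gene that covers 41.5% of the DHRS13 exon bases, AC024267.6, had 0 counts in all 6 samples.

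Replicates of the DHRS genes were close. The coefficient of variation of the CPM over 3 samples was 0.643 to 8.68% with si-NC and 1.06 to 12.8% with si-CNN3#1 across the 7 tested genes, and for DHRS2 it was 4.99% with si-NC and 6.0% with si-CNN3#1. The intervals of the relatives accordingly had upper ends between -0.01 and 0.23, and lower ends between -0.30 and -0.06, on the log2 scale.

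**Figure D3:**
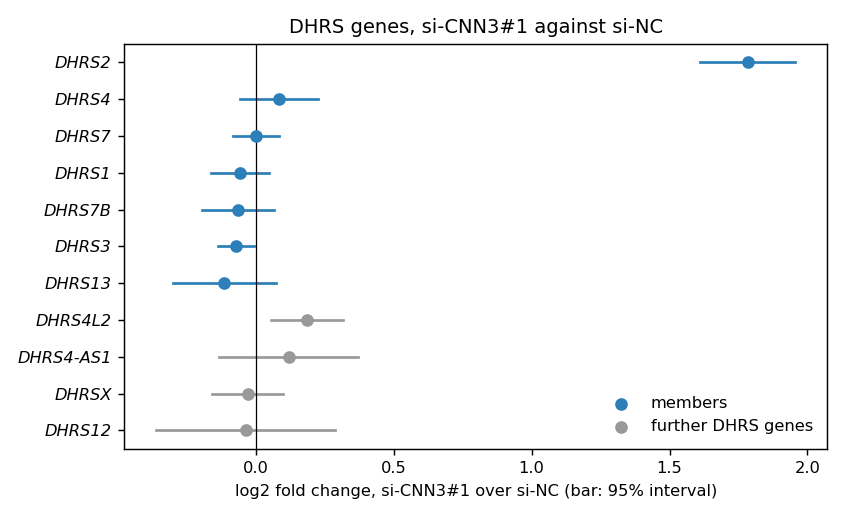
Log2 fold change of si-CNN3#1 over si-NC (x) for the 7 tested DHRS genes of the list (blue) and the 4 tested further DHRS genes (grey), with bars for the 95% interval, n = 3 per group. DHRS2 lies at 1.78 and the other 10 genes between -0.11 and 0.18, with DHRS3 and DHRS4L2 as the relatives whose intervals leave out 0.

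Of 6 further DHRS genes, 4 were tested and DHRS4L2 was the 1 past the threshold (beside 13.3% of all tested genes), a call that was lost under 10 of 16 other settings as described above. DHRS4-AS1, antisense to DHRS4, had a log2 fold change of 0.12 (95% interval -0.13 to 0.37), DHRSX had -0.03 (-0.16 to 0.10) and DHRS12 had -0.04 (-0.36 to 0.29), with edgeR adjusted p of 0.618, 0.840 and 0.922. DHRS4L1 with at most 13 counts and DHRS7C with at most 1 count in a sample were not tested.

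The siRNAs were compared with the DHRS transcripts because a seed, bases 2 to 8 of the guide strand, can pair with 3′ UTRs of unintended transcripts. The guide strands, 5′ to 3′ with the seed in capitals, are the reverse complements of the sense strands given in the sample descriptions without their overhangs.
si-CNN3#1 guide: uUUGUUGGuucccaucugc
si-NC guide: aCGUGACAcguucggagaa

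The full target of si-CNN3#1 was found in transcripts of CNN3 and of no other gene in GENCODE release 29. The site that pairs with its seed, CCAACAA on the transcript strand, was present in the 3′ UTRs of 9.78% of 19113 genes and in 0 of the 9 DHRS genes. The site for the si-NC seed, TGTCACG, was present in 2.99% of genes and also in 0 of the 9. The absence of these letters says that they are not in these annotated 3′ UTRs.

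DHRS2 was then set beside its neighbours on chromosome 14. Of 48 annotated genes whose start lies within 500 kb of that of DHRS2, 39 were in the table and 22 were tested. These 22 had a median log2 fold change of -0.01 and a range of -0.72 to 0.26, against 1.78 for DHRS2. AP1G2, an adaptor subunit of vesicle coats and the nearest tested gene at 62.0 kb, had a log2 fold change of 0.06 (SE 0.072). Past the threshold were 2 of the 22, beside 13.3% of all tested genes. They were DHRS4L2, described above, and DCAF11, a substrate receptor of a ubiquitin ligase 484 kb away, which fell by 0.26 (SE 0.046, edgeR adjusted p = 1.57e-05). DHRS1 lies 670 kb from DHRS2, outside this window.

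**Figure D4:**
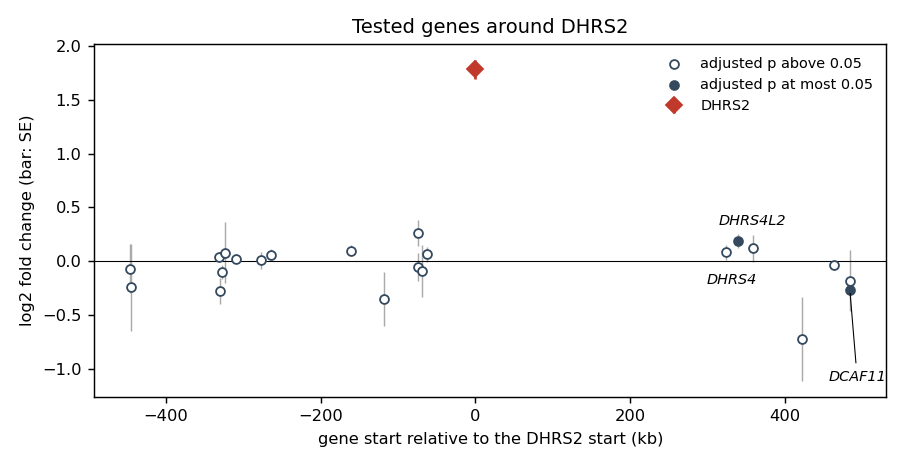
Log2 fold change of si-CNN3#1 over si-NC (y, bars for the standard error) of the 22 tested genes around DHRS2, by the distance of their start from that of DHRS2 (x, kb), with filled points at an adjusted p of at most 0.05. DHRS2 (red) lies at 1.78, while the 22 neighbours lie between -0.72 and 0.26.

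The genes whose pattern over the 6 samples was most like that of DHRS2 were sought among 14111 genes. These had a mean of at least 1 CPM over both groups. Likeness was measured by the root mean square difference of log2 CPM after centring each gene on its mean. SLC12A7, a potassium-chloride cotransporter, was the closest with a difference of 0.104. It measured 7.28, 7.23 and 7.60 CPM with si-NC and 22.9, 22.3 and 21.8 CPM with si-CNN3#1, so its level as well as its rise were near those of DHRS2. The next were TCN2, a vitamin B12 carrier, at 0.177, AC139491.2 at 0.181, IRGM, an immunity-related GTPase, at 0.209 and the cytokine gene IL20 at 0.247. These 4 had counts of 7 to 66, far fewer than DHRS2. TCN2, AC139491.2 and IRGM averaged 0.398, 0.726 and 0.685 CPM with si-NC. They thus met the floor of 1 CPM only through the si-CNN3#1 samples, and nothing is read from their place. With 2 groups of 3 samples, any gene with a rise of similar size is close by this measure.

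Beyond the DHRS names, 58 other short-chain dehydrogenase/reductase genes were in the table and 47 were tested. Of these, 4 were past the threshold, 1 higher and 3 lower, which is 8.51% where 13.3% of all tested genes passed, and the median log2 fold change was 0.02. HSD17B12, which acts in fatty acid elongation, rose from 180 ± 1.54 to 196 ± 7.57 CPM, by 0.13 on the log2 scale (SE 0.030, edgeR adjusted p = 0.00166). CBR3, a carbonyl reductase, fell by 0.34 (SE 0.087, adjusted p = 0.00434), MAT2B, the regulatory subunit of methionine adenosyltransferase, fell by 0.17 (SE 0.038, adjusted p = 0.000911), and FASN, the fatty acid synthase with a ketoreductase domain, fell by 0.09 (SE 0.026, adjusted p = 0.0158), in the edgeR test. CBR3 did not pass without si-CNN3#1 replicate 1 (adjusted p = 0.0639), and FASN did not pass without si-CNN3#1 replicate 3 (0.0994) or si-NC replicate 3 (0.174), with edgeR. CBR3 also did not pass with DESeq2 (adjusted p = 0.0715), and MAT2B and FASN passed in none of the 3 limma fits on FPKM (0.0582 to 0.196 and 0.136 to 0.318).

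Of 29 genes of retinoid transport, metabolism and response, 23 were tested and 8 passed, 2 higher and 6 lower, with a median log2 fold change of -0.03. This is 34.8% of the tested genes of the list, where 13.3% of all tested genes passed (6.17% higher and 7.14% lower). The list was written with earlier results of these data known, and the study had already named TGM2 and RXRA among its changed genes. Nothing is therefore read from this share. With DESeq2, 5 of the 16 list genes with an adjusted p passed, beside 1073 of 12761 over all genes. On the side of the enzymes, ALDH1A1 and ALDH1A3, which oxidise retinal to retinoic acid, rose. ALDH1A1 went from 1.55, 2.17 and 1.39 CPM to 2.92, 3.33 and 2.74 CPM, a log2 fold change of 0.80 (SE 0.19, edgeR adjusted p = 0.00236), and ALDH1A3 went from 54.0 ± 0.805 to 59.2 ± 2.60 CPM, a log2 fold change of 0.13 (SE 0.043, adjusted p = 0.0301). CYP26B1, which degrades retinoic acid, fell by 0.26 (SE 0.063, edgeR adjusted p = 0.00225). The groups did not overlap for any of these 3 genes. ALDH1A3 did not pass without si-CNN3#1 replicate 1 (edgeR adjusted p = 0.135), si-CNN3#1 replicate 2 (0.133), si-NC replicate 1 (0.0993) or si-NC replicate 3 (0.0847), nor with DESeq2 (adjusted p = 0.163) or edgeR without the filter on low counts (0.0609).

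On the side of the receptors, RXRA fell by 0.37 (SE 0.031), RARG fell by 0.15 (SE 0.041) and RARA fell by 0.15 (SE 0.051), with edgeR adjusted p of 9.32e-14, 0.0085 and 0.0454. RARG did not pass without si-NC replicate 2 (edgeR adjusted p = 0.0978), and RARA did not pass when any 1 sample was left out (0.0585 to 0.267) other than si-CNN3#1 replicate 1. With DESeq2 neither RARG (adjusted p = 0.0705) nor RARA (0.214) passed, and RARA passed in none of the 3 limma fits (0.108 to 0.232). RARA also did not pass in edgeR with upper-quartile (0.0575) or total-count scaling (0.0841) or with no filter on low counts (0.0525). RARB, at 4 to 15 counts, had a log2 fold change of 1.03 with a 95% interval of 0.23 to 1.83 and did not pass (adjusted p = 0.077, edgeR), and RXRB had -0.04. Also past the threshold were TGM2, the tissue transglutaminase, which fell by 0.43 (SE 0.026), and RARRES1, which fell by 0.27 (SE 0.029). Their edgeR adjusted p were 2.49e-19 and 1.8e-10. The remaining tested genes of the list did not pass, with log2 fold changes between -0.40 and 0.56, among them CYP26A1, LRAT, CRABP2, RDH14, RDH10, RDH13, RDH11, ALDH1A2, RBP4, RDH5, BCO2 and STRA6, and the RDH genes, retinol dehydrogenases, stand in the list of short-chain dehydrogenases too. RDH12, RDH16, CYP26C1, CRABP1, BCO1 and RXRG were too low to be tested.

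MDM2, whose product has been described as a partner of DHRS2, had a log2 fold change of 0.09 (95% interval 0.01 to 0.17) and did not pass (edgeR adjusted p = 0.139). Among genes of growth arrest and stress, CDKN1A, the cyclin-dependent kinase inhibitor p21, rose by 0.30 (SE 0.035), and SESN2 and GADD45A rose by 0.33 (SE 0.052) and 0.44 (SE 0.057), with edgeR adjusted p of 1.79e-09, 2.62e-06 and 3.26e-08. The groups did not overlap for these 3 genes, while they did for MDM2.

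**Figure D5:**
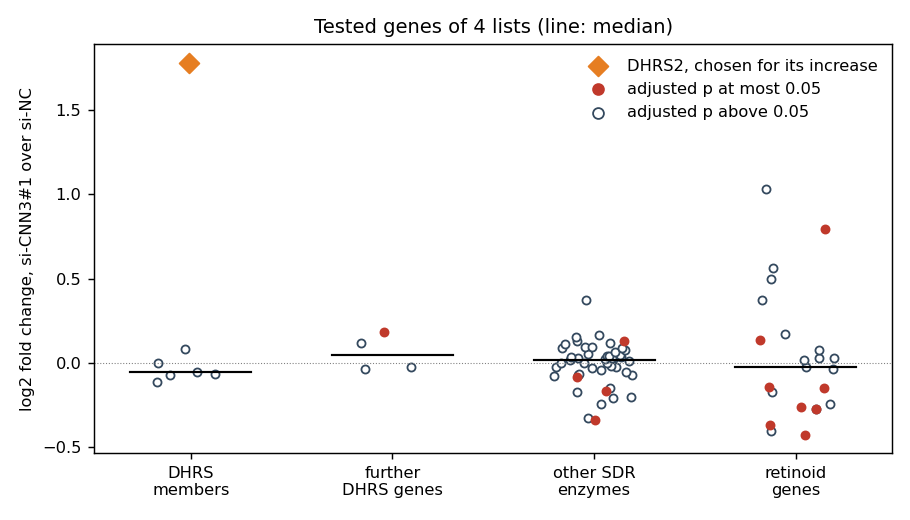
Log2 fold change of si-CNN3#1 over si-NC (y) of each tested gene of 4 lists (x), filled where the adjusted p is at most 0.05, with a line at each median. DHRS2 (orange diamond) lies at 1.78, and the medians of the lists lie between -0.06 and 0.05.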

How the data were processed

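RNA of 6 SiHa samples was sequenced (TruSeq RNA kit, 3 samples per group, grouped by the sample labels). The authors deposited read counts per Ensembl gene and sample, and FPKM values made from the same counts. The submitters' processing notes name TopHat2 2.0.9, Bowtie2 2.0.6, HTSeq and DESeq 1.10.1, while genome build, annotation, use of strand and the treatment of multiply matching reads are not given in the sources used here. GENCODE release 29 (GRCh38) gave names and positions for 45342 of the 48162 identifiers. Without strand, reads of overlapping opposite genes cannot be told apart.

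Counts were scaled by TMM, filtered with filterByExpr and fitted on condition alone with the quasi-likelihood functions glmQLFit and glmQLFTest of edgeR 4.0.16 (R 4.3.3). The p-values were adjusted by Benjamini-Hochberg over 15860 genes, with 0.05 as the threshold. Of these, 2111 passed, 978 higher and 1133 lower. The standard error is the absolute log2 fold change over the square root of F, and intervals are 95% intervals of that fit. The test was first tried on simulated data, with 200 genes set as changed and 1 common spread for all genes. That trial does not show how the test does where the spread differs between genes. Total counts were 18147028 to 24976517, and the p-values rest on the spread between these samples. That spread was small, with a common biological coefficient of variation of 0.023. Between samples of the same group the chi-square per degree of freedom was 1.56 to 1.98, so replicates differed little beyond counting. Whether this is the spread of separate transfections was not tested, and the p-values do not measure variation across further experiments. All fold changes are si-CNN3#1 over si-NC. Alternatives were RLE, upper-quartile and total-count scaling, DESeq2 1.42.0, a block on the replicate number, no filter, a minimum of 10 counts per sample, each sample left out, and limma 3.58.1 on log2(FPKM + 1), filtered at a mean of 1 FPKM or unfiltered, and on log2(FPKM + 0.1), filtered. Counting DHRS4, DHRS4L2 and DHRS4L1 as 1 gene was added after seeing the data.

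The DHRS genes, gene lists and tests were chosen with earlier results of these data known. Named genes are the 9 DHRS genes, CNN3, RPLP1, every further DHRS and retinoid gene, the 4 called genes of the other lists with the largest change plus CDKN1A and MDM2, called genes within 500 kb of DHRS2, genes overlapping a DHRS gene and the 5 most like DHRS2; AP1G2 and the neighbours in rank CCR4 and IRGM were named after their values were seen. Some named items and the counts of 1 gene list are not reported here. Motifs and sequences come from RefSeq promoter entries (GRCh38.p14), the sample descriptions and GENCODE transcripts.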

Additional observations from a re-analysis of the deposited data

How the results depend on the processing

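DHRS2 was higher with si-CNN3#1 in all 16 alternatives, with log2 fold changes of 1.50 to 1.83 (1.75 to 1.83 with 1 sample left out), and the lowest value, 1.50, came from limma on log2(FPKM + 1), with or without the filter, a scale that understates low genes. The alternatives reused the samples that selected DHRS2, so its direction in them is no further support. The count of DHRS genes called was 1 in every alternative, the selected gene DHRS2. The relatives did not pass in any of them, with edgeR, DESeq2 or limma adjusted p from 0.0682 (DHRS3) to 0.999 (DHRS7). DHRS7 changed sign around 0 (-0.014 to 0.019 with a sample left out), at -0.00057 with DESeq2, -0.0053 with no filter, -0.0088 without si-CNN3#1 replicate 3, -0.014 without si-NC replicate 2 and -0.0051 without si-NC replicate 3, and DHRS7B did so without si-NC replicate 1, in a range of -0.13 to 0.0053.

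Over all genes, 1073 passed with DESeq2, 1363 with limma on log2(FPKM + 1), 1353 on log2(FPKM + 0.1), 585 without the FPKM filter and 1551 to 1747 with 1 sample left out. Scaling by total counts gave 1294 higher and 863 lower. DHRS4L2 did not pass, which left 0 further DHRS genes called, with DESeq2, no filter, the minimum of 10 counts and the 3 limma fits, and 0 to 1 with a sample left out. Other short-chain dehydrogenases called were 2, 2 and 0 in the 3 limma fits. Retinoid genes called were 5 of 16 with DESeq2 and 3 in limma without filter, and all lists together gave 7 in that last fit. In that fit HSD17B12, ALDH1A1 and CYP26B1, which passed in every other alternative, had limma adjusted p of 0.087, 0.0994 and 0.076. With the replicate number as a block, 2727 genes passed. Deviations of same-numbered samples correlated at 0.0105, 0.0329 and 0.0275, so the numbers were not taken as a pairing. The cause of these shifts was not tested. Depth limits DHRS9, and shared sequence limits how reads divide between DHRS4 and DHRS4L2.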
